A study of Homo sapiens with 8 samples.

Results

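Genes of one pathway, 10 in all, were followed in colorectal cancer cells treated with Z325, a small molecule also called ZINC000101867325 that had been picked by docking against the fibroblast growth factor receptors. They were the cystine transporter genes *SLC7A11* and *SLC3A2*, the glutathione synthesis genes *GCLC*, *GCLM* and *GSS*, the glutathione reductase gene *GSR* and the glutathione peroxidase genes *GPX1*, *GPX2*, *GPX3* and *GPX4*. These 10 genes were chosen by name for their place in the pathway, with earlier results of these data known, out of 63241 genes listed for NCI-H716 and 28043 genes listed for HCT116. HCT116 is a colorectal carcinoma line that grows attached, and NCI-H716 is a colorectal line with endocrine features that was derived from ascites. RNA had been sequenced from 8 libraries, with 2 control and 2 Z325 libraries for each line and about 100 cells in each reaction. The labels call the treated samples "Test" and name neither a dose nor a time for them, and the vehicle of the control cells is not given for the RNA-seq in the sources used here. The study calls the libraries of a group biological duplicates, and with 2 of them each p-value rests on a spread seen between very few samples. The count table of HCT116 used here covers chromosomes 1 to 8, so *SLC3A2*, *GSS*, *GPX2* and *GPX4* have values in NCI-H716 only, and 6 of the 10 genes have values in HCT116.

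Cells import cystine in exchange for glutamate through a transporter made of the light chain SLC7A11 and the heavy chain SLC3A2, and reduce it to cysteine. Glutamate-cysteine ligase, with the catalytic subunit GCLC and the modifier subunit GCLM, joins cysteine to glutamate, and glutathione synthetase, encoded by *GSS*, adds glycine to complete glutathione. The glutathione peroxidases GPX1 to GPX4 are selenoenzymes that spend glutathione to reduce peroxides, with GPX4 acting on lipid peroxides in membranes. Glutathione reductase restores the oxidized product. Several of these genes are known targets of the transcription factor NRF2, which binds the antioxidant response element (ARE), and *SLC7A11* and *SLC3A2* are known targets of ATF4, which binds the C/EBP-ATF response element (CARE).

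*SLC7A11* and *GCLM* rose with Z325 in both lines. In HCT116, *SLC7A11* rose 6.3-fold, *GCLM* 3.45-fold and *GCLC* 3.33-fold, and in NCI-H716 *GPX2* rose 6.86-fold, *SLC7A11* 4.76-fold, *GCLM* 4.11-fold and *SLC3A2* 2.2-fold. No member was called lower in either line, where 2.94% of all genes tested in HCT116 and 0.099% in NCI-H716 were. The peroxidases *GPX1* and *GPX4* had lower values in NCI-H716 at adjusted p-values of 0.118 and 0.198 in edgeR. *GPX3* was lower there too, but it was kept for testing only through the controls, where it was high. *GSS* and *GSR* were not called where they were tested.

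Short stretches of 3 promoters are shown because they belong to genes that rose and are the only ones among the members in which the core letters of the ARE were found. Windows from 250 bases before to 50 bases after the RefSeq start sites were searched for the ARE core TGACNNNGC and its reverse complement GCNNNGTCA. Of the 10 members, 7 had such windows, 11 in all: *SLC3A2*, *GCLC*, *GCLM*, *GPX1*, *GPX2*, *GPX3* and *GPX4*. No window in the table was matched for *SLC7A11*, *GSS* and *GSR*. The core was in 3 of the 11 windows, and 13.35% of all 35116 RefSeq windows of that length held it. In the lines that follow, the capitals mark the match, and the assembly is GRCh38.p14.
SLC3A2, chr11:62881637-62881695, plus strand: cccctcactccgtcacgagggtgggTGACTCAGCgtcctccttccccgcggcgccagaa
GCLM, chr1:93909431-93909489, minus strand: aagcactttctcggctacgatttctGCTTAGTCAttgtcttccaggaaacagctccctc
GPX2, chr14:64942834-64942892, minus strand: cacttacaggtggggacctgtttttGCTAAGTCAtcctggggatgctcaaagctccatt
The first capital lay at base -37 from the start site in *SLC3A2*, at -34 in *GCLM* and at -122 in *GPX2*, and each stretch lies before its start site. The *SLC3A2* match also holds the AP-1 core TGACTCA, which 4.95% of all windows hold, and this was 1 of 3 start sites of that gene. The CARE core TGATGNAA, searched on both strands and held by 3.62% of all windows, was found among the members only in the same *SLC3A2* window, at base 38 after the start. A match of letters is a description and does not show that a factor was bound there.

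The HCT116 libraries held between 3434620 and 13396225 counts on the listed genes, and Z325 replicate 2 was the shallow one. The NCI-H716 libraries held between 10210243 and 19738848 expected counts. Levels of cell type markers are given in CPM, the counts of a gene scaled to an equal library total. Of the 2 epithelial markers listed in HCT116, *EPCAM* made up nearly all of the sum, and *VIL1* stayed under 1 CPM. That sum was 1420 and 1660 CPM in control and 1650 and 1620 CPM in Z325 cells, so the groups overlapped. In NCI-H716, 5 of 7 epithelial markers passed 1 CPM, with a sum of 747 and 778 CPM in control and 638 and 650 CPM in Z325 cells, while *CDH1* and *KRT20* stayed under it. Enteroendocrine markers summed to 3220 and 2780 CPM in NCI-H716 control and 2680 and 2680 CPM in Z325 cells, led by *GCG*. The lower sum came from *GCG*, with means of 2280 CPM in control and 1730 CPM in Z325 cells. The other 4 tested had higher means in Z325 cells, such as *CHGB* at 492 CPM in control and 675 CPM in Z325 cells. Of these 7 markers, 5 passed 1 CPM, while *PYY* and *NEUROD1* were at or near 0. Of 6 markers of leukocytes, fibroblasts, endothelium and red cells, the sum in NCI-H716 was 246 and 271 CPM in control and 317 and 362 CPM in Z325 cells. Nearly all of it was the collagen gene *COL3A1*, while *PTPRC*, *COL1A1* and *PECAM1* were at or near 0. In HCT116 the 3 listed ones of these markers summed to 0.145 and 0.153 CPM in control and 0.938 and 1.72 CPM in Z325 cells. The enteroendocrine markers listed in HCT116 summed to 20.5 and 22.5 CPM in control and 14.8 and 17.8 CPM in Z325 cells, nearly all of it *SCG2*. The groups did not overlap in the epithelial sums of NCI-H716, or in the enteroendocrine and other-cell sums of either line. The part of these differences in the results that follow was not tested.

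All levels in the next paragraphs are CPM after TMM scaling, which corrects for total depth and for differences in RNA composition between libraries. All fold changes set Z325 against control on the log2 scale, as fitted by edgeR. Their p-values were adjusted over every gene tested in that line. Standard errors of edgeR fold changes were derived from the F statistic of the test, as the absolute fold change divided by the square root of F. A gene is called changed at an adjusted p under 0.05. In HCT116, 3 of the 5 members tested were called, all higher, against 5.78% of the 6491 genes tested called in either direction and 2.83% called higher. In NCI-H716, 4 of the 10 members were called, all higher, against 0.502% of 14142 genes called in either direction and 0.403% called higher. Both Z325 libraries lay above both controls in 4 of 5 members tested in HCT116 and 6 of 10 in NCI-H716, as in 24.8% and 24.3% of all genes, and below them in the other members. At an unadjusted p under 0.05 and lower were *GPX1* in HCT116, among 12.7% of all genes tested, and *GPX1* and *GPX4* in NCI-H716, among 9.27%. *GPX3* had such a p in NCI-H716 too. It passed the filter there only through the controls, where it was high, so its p is no support for a fall. In these bulk libraries fewer cells of a type and less RNA per cell cannot be told apart.

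**Figure D1:**
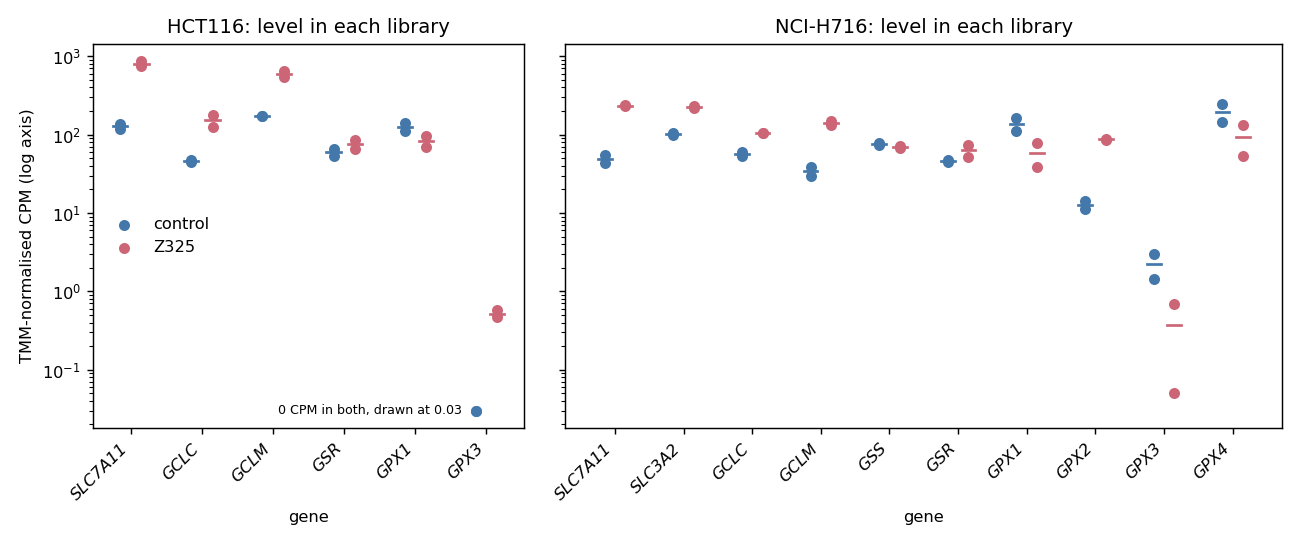
Level of each gene in each library, as TMM-normalised CPM on a log axis, for HCT116 (left) and NCI-H716 (right). Each point is 1 library and each short line the mean of the 2 libraries of a group, with the 2 HCT116 control values of *GPX3*, both 0 CPM, drawn at 0.03 without a line. The Z325 points of *SLC7A11*, *GCLC* and *GCLM* lie above the control points in both lines, and those of *GPX1* below them.

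The light chain gene *SLC7A11* (ENSG00000151012, chr4:138164097-138242349, minus strand, GENCODE v44 on GRCh38) had the largest rise of any member in HCT116. Its level was 136 and 118 CPM in the HCT116 control libraries and 745 and 858 CPM in the Z325 libraries. In NCI-H716 it was 43.8 and 54.9 CPM in control and 236 and 233 CPM in Z325 cells. The groups were far apart in both lines, and the rise was seen in both Z325 libraries of each line. The fold change was 2.66 in HCT116 (standard error 0.15, adjusted p = 0.000331, edgeR) and 2.25 in NCI-H716 (standard error 0.18, adjusted p = 0.000404, edgeR). The antisense gene *SLC7A11-AS1* overlaps 8.968% of the exon bases of *SLC7A11*. It held at most 6 counts in any HCT116 library and at most 10.02 in any NCI-H716 library, against 1543 counts or more and 566 counts or more of *SLC7A11* in the same lines.

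The heavy chain gene *SLC3A2* (ENSG00000168003, chr11:62856004-62888880, plus strand) also serves as the partner of other amino acid transporters. Its level in NCI-H716 was 98.8 and 105 CPM in control and 233 and 216 CPM in Z325 cells. The libraries of each group lay close together and the groups were far apart. The fold change was 1.14 (standard error 0.16, adjusted p = 0.013, edgeR), and it lost its call without control replicate 1, at 1.10 with an adjusted p of 0.142. The ratio of *SLC7A11* to *SLC3A2*, taken per transcript length from FPKM, was 0.0593 and 0.0648 in control and 0.125 and 0.131 in Z325 cells. With 2 libraries against 2, an exact two-sided permutation test cannot go below p = 0.333, which is the value it gave here.

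Of the other light chains that pair with SLC3A2, 5 were listed for NCI-H716 and 2 were tested, with none called. *SLC7A5*, a carrier of large neutral amino acids, was at 7.48 ± 0.563 CPM in control and 11.7 ± 2.95 CPM in Z325 cells (SD, n = 2 each; fold change 0.64, adjusted p = 0.29, edgeR). *SLC7A6*, which exchanges cationic and neutral amino acids, was at 17.3 ± 7.64 and 21.0 ± 4.25 CPM (SD, n = 2 each; fold change 0.29, adjusted p = 0.67, edgeR), and its groups overlapped. On the opposite strand *SLC7A6OS* overlaps 44.439% of the exon bases of *SLC7A6*, and an unnamed gene 5.688% of those of *SLC7A5*, so both values are uncertain.

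Glutamate-cysteine ligase showed the same direction in both subunits. *GCLM* (ENSG00000023909, chr1:93885199-93909456, minus strand), the modifier, was at 173 and 174 CPM in HCT116 control and 546 and 653 CPM in Z325 cells. In NCI-H716 it was at 29.7 and 38.3 CPM in control and 148 and 131 CPM in Z325 cells. Both Z325 libraries stood well above both controls in each line. Its fold change was 1.79 in HCT116 (standard error 0.14, adjusted p = 0.00113, edgeR) and 2.04 in NCI-H716 (standard error 0.19, adjusted p = 0.00117, edgeR).

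The catalytic subunit gene *GCLC* (ENSG00000001084, chr6:53497341-53616970, minus strand) was at 46.8 and 44.1 CPM in HCT116 control and 126 and 177 CPM in Z325 cells. In NCI-H716 it was at 53.5 and 60.8 CPM in control and 104 and 106 CPM in Z325 cells. The groups did not overlap in either line, but the NCI-H716 gap was the smaller one. *GCLC* had a fold change of 1.73 in HCT116 (standard error 0.21, adjusted p = 0.00498, edgeR), and without control replicate 1 or control replicate 2 it lost its call (adjusted p = 0.0527 and 0.0877), in fits that called 44 and 23 of all genes in place of 375. In NCI-H716 it was 0.88 (standard error 0.17, adjusted p = 0.0615, edgeR), which missed the threshold. It passed the threshold there without Z325 replicate 1 or Z325 replicate 2, at 0.90 and 0.88. A fit without a library leaves 1 in that group, whose spread is then assumed to be that of the other group, and without Z325 replicate 1 or 2 such fits called 1386 and 222 of all NCI-H716 genes in place of 71. For every member, a call gained by leaving out a library is therefore given by its value alone.

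Part of the *GCLC* signal is uncertain because an unnamed non-coding gene on the same strand, ENSG00000231683, shares 6.138% of its exon bases. That gene was at 3.33 and 5.62 CPM in the NCI-H716 controls and 17.8 and 24.1 CPM in the Z325 libraries, while in HCT116 it stayed under 1 CPM in every library. Once its counts were added to those of *GCLC*, a setting chosen after seeing the data, the NCI-H716 fold change was 1.03 and passed the threshold (adjusted p = 0.0293, edgeR).

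The balance of the subunits moved in NCI-H716. The FPKM ratio of *GCLC* to *GCLM* was 2.17 and 2.01 in NCI-H716 control and 1.07 and 1.13 in Z325 cells (exact two-sided permutation p = 0.333, the smallest possible). In HCT116 it was 0.17 and 0.16 in control and 0.146 and 0.171 in Z325 cells, so the groups overlapped (exact two-sided permutation p = 1.0). RSEM's mean transcript length of *GCLM* was 3734.68 and 4173.15 bases in NCI-H716 control and 4737.48 and 4381.8 bases in Z325 cells, which enters this ratio, and its part was not tested. The ratios of the lines cannot be set against each other, since HCT116 lengths were taken as all exon bases of a gene and NCI-H716 lengths as RSEM's effective transcript lengths.

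The last step of synthesis and the recycling step had small differences that did not pass the test. *GSS* (ENSG00000100983, chr20:34928432-34956027, minus strand) was at 78.6 and 73.5 CPM in NCI-H716 control and 66.7 and 71.9 CPM in Z325 cells. All 4 libraries lay close together, with a fold change of -0.13 (standard error 0.17, adjusted p = 0.731, edgeR). *MYH7B*, on the opposite strand, overlaps 2.238% of its exons and held at most 5 counts in any library.

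*GSR* (ENSG00000104687, chr8:30678066-30727846, minus strand) was at 65.6 and 54.1 CPM in HCT116 control and 65.8 and 86.2 CPM in Z325 cells. In NCI-H716 it was at 45.1 and 47.4 CPM in control and 52.0 and 74.5 CPM in Z325 cells. In both lines replicate 2 of Z325 was the highest library and replicate 1 lay just above the controls. The fold change was 0.34 in HCT116 (standard error 0.21, adjusted p = 0.383, edgeR) and 0.45 in NCI-H716 (standard error 0.21, adjusted p = 0.3, edgeR). Without Z325 replicate 1 the NCI-H716 value was 0.70 and passed the threshold, and without Z325 replicate 2 it was 0.18 (adjusted p = 0.9).

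The peroxidases did not move together in NCI-H716. *GPX2* (ENSG00000176153, chr14:64939152-64942746, minus strand), the peroxidase typical of gastrointestinal epithelium, was at 11.4 and 14.1 CPM in control and 88.4 and 85.5 CPM in Z325 cells. Its Z325 libraries were near one another and far above the controls, and its fold change of 2.78 was the largest rise of any member in that line (standard error 0.2, adjusted p = 0.000246, edgeR). The call held in every alternative that was run, with fold changes from 2.63 to 2.95.

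*GPX4* (ENSG00000167468, chr19:1103982-1106791, plus strand) was at 249 and 143 CPM in NCI-H716 control and 131 and 54.1 CPM in Z325 cells. The groups did not overlap, but control replicate 2 lay just above Z325 replicate 1. *GPX4* had a fold change of -1.08 (standard error 0.37, adjusted p = 0.198, edgeR). Single libraries set its size, since it was -0.62 without control replicate 1 (adjusted p = 0.839), -1.84 without Z325 replicate 1, where it passed the threshold, and -0.56 without Z325 replicate 2 (adjusted p = 0.282).

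*GPX1* (ENSG00000233276, chr3:49357174-49358605, minus strand), the broadly expressed cytosolic peroxidase, was at 111 and 142 CPM in HCT116 control and 97.3 and 69.9 CPM in Z325 cells. In NCI-H716 it was at 165 and 110 CPM in control and 77.4 and 38.5 CPM in Z325 cells. Both lines had both Z325 libraries below both controls, as did 29.0% of all genes tested in HCT116 and 25.1% in NCI-H716. The fold change was -0.59 in HCT116 (standard error 0.21, adjusted p = 0.14, edgeR) and -1.25 in NCI-H716 (standard error 0.3, adjusted p = 0.118, edgeR). Values without single libraries passed the threshold at -0.87 without Z325 replicate 1 in HCT116, where 971 of all genes were called in place of 375, and in NCI-H716 at -1.50 without control replicate 2, -1.83 without Z325 replicate 1 and -0.81 without Z325 replicate 2. With DESeq2 the NCI-H716 value was -1.25 and was called (adjusted p = 0.00438).

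The *GPX1* values are uncertain for 2 reasons. Copies of its transcript lie in the pseudogenes *GPX1P1* on chromosome X and *GPX1P2* on chromosome 21, and 39.944% of its exon bases are shared with ENSG00000290318, an unnamed protein-coding gene on the same strand. That gene had 0 counts in every HCT116 library, while in NCI-H716 it was at 21.5 and 27.9 CPM in control and 29.9 and 42.1 CPM in Z325 cells, opposite in direction to *GPX1*. With its counts added to *GPX1*, a setting chosen after seeing the data, the NCI-H716 fold change was -0.79 (adjusted p = 0.128, edgeR).

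*GPX3* (ENSG00000211445, chr5:151020591-151028988, plus strand), which encodes the secreted plasma peroxidase, was near the limit of counting. It had 40 and 15 counts in NCI-H716 control and 9 and 1 counts in Z325 cells, or 3.03, 1.45, 0.687 and 0.0503 CPM. It passed the filter there only through the controls, where it was high, so its fold change is a description. In HCT116 it had 0 counts in both controls, which allows up to 0.225 and 0.228 CPM, and 6 and 2 counts in Z325 cells, too few to be tested. The fold change in NCI-H716 was -2.73 (standard error 0.92, adjusted p = 0.197, edgeR), and it ran from -5.26 without Z325 replicate 1, where it passed the threshold, to -1.69 without Z325 replicate 2 (adjusted p = 0.527).

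**Figure D2:**
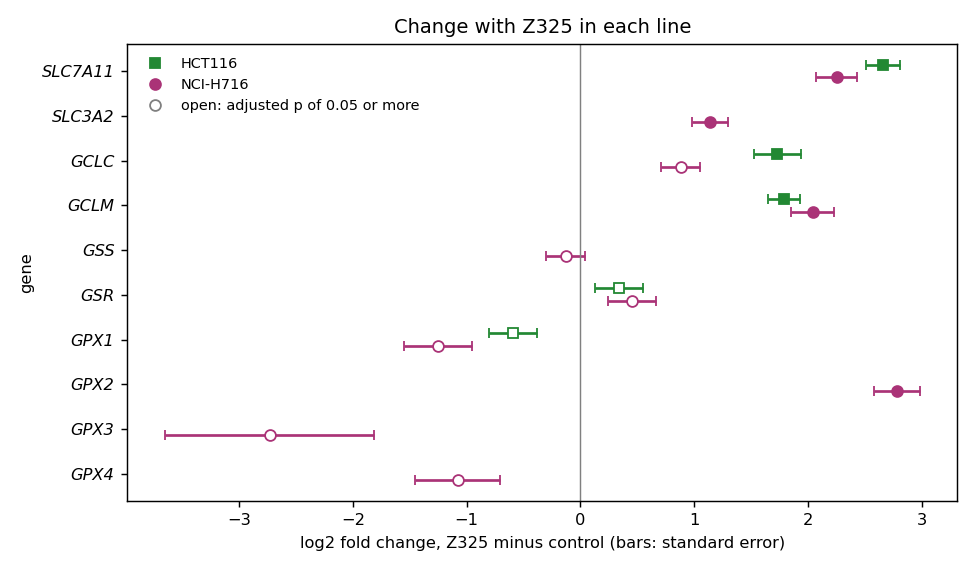
Fold change of each gene with Z325 on the log2 scale in HCT116 (squares) and NCI-H716 (circles), as fitted by edgeR, with bars for the standard error. Filled symbols have an adjusted p under 0.05, and all 7 of them lie to the right of 0, with *GPX2* at 2.78 and *SLC7A11* at 2.66 the highest.

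In NCI-H716 fragment length moved with treatment as well as with the lower peroxidases, and *GPX1* and *GPX4* were rich in G and C. In NCI-H716 the level of *GPX1*, *GPX3* and *GPX4* was highest in control replicate 1, then in control replicate 2, Z325 replicate 1 and Z325 replicate 2. The mean fragment term of RSEM, which is the length of a gene minus its effective length, ran in the opposite order in these libraries, at 232.4, 259.3, 272.1 and 280.5 bases, and its part in these values was not tested. That order also divides control from Z325, so fragment length and treatment cannot be told apart for any member. *GCLC* and *GSR* rose along it, at 53.5, 60.8, 104 and 106 CPM and at 45.1, 47.4, 52.0 and 74.5 CPM. *SLC7A11*, *SLC3A2*, *GCLM* and *GPX2* were higher in both Z325 libraries, but highest in Z325 replicate 1. *GSS* did not follow the order. The G and C content of the transcripts of *GPX1* and *GPX4* was 62.3% and 62.4%, in the top quartile of tested genes. All tested genes in that quartile had a median fold change of -0.25 in NCI-H716 and -0.33 in HCT116, against 0.12 and 0.14 in the bottom quartile.

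With offsets that level the fold changes over GC content and transcript length, added after seeing the data, the fold change of *GPX1* was -0.12 in HCT116 (adjusted p = 0.776) and -0.94 in NCI-H716 (adjusted p = 0.0889), and that of *GPX4* was -0.77 (adjusted p = 0.207, edgeR). *GPX3* stayed at -2.56 (adjusted p = 0.197, edgeR). The rises were near their earlier values under the same offsets, at 2.62 and 2.01 for *SLC7A11* in HCT116 and NCI-H716, 2.94 for *GPX2* and 1.31 for *SLC3A2*. *GCLC* gained a call in NCI-H716 at 0.83 (adjusted p = 0.0409, edgeR), and *GSS* turned to 0.07 (adjusted p = 0.868, edgeR).

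**Figure D3:**
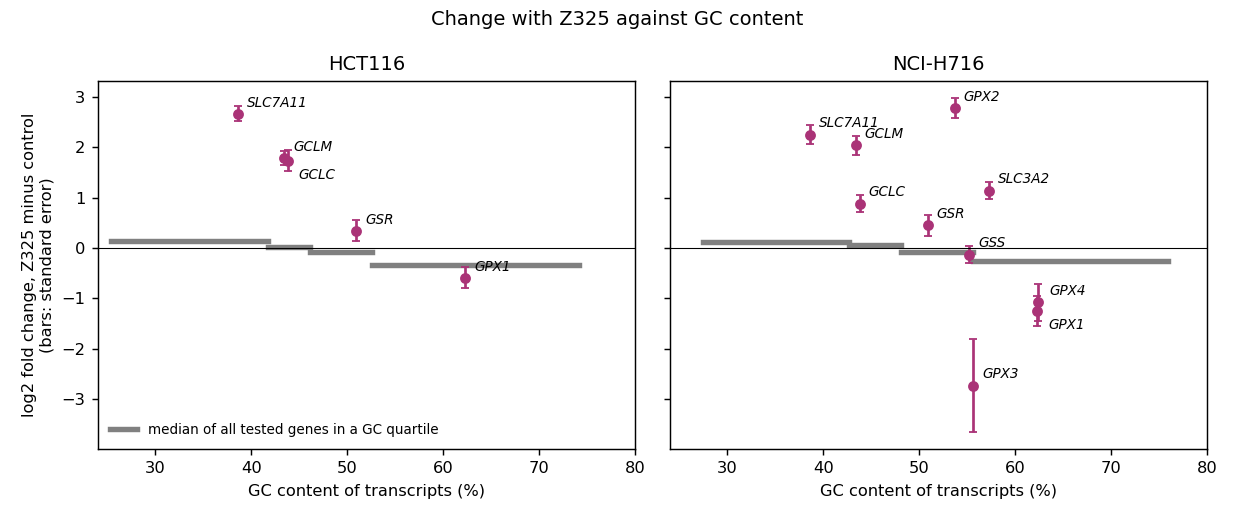
Fold change of each tested gene with Z325 on the log2 scale, with bars for the standard error, against the GC content of its transcripts in percent, for HCT116 (left) and NCI-H716 (right). Grey bars span each quartile of GC content and give the median of all tested genes in it, from 0.14 down to -0.33 in HCT116 and from 0.12 down to -0.25 in NCI-H716. *GPX2* and *SLC3A2*, at 53.7% and 57.3% GC, lie far above the grey bars at their GC content.

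Per transcript length, *GPX4* and *GPX1* were the most abundant of the members in NCI-H716 control cells. On the FPKM scale *GPX4* was at 437 and 273 and *GPX1* at 250 and 179, followed by *SLC3A2* at 79.8 and 91.2 and *GSS* at 59.0 and 58.8. *GCLC* (18.1 and 19.9), *GPX2* (16.2 and 21.4) and *GSR* (15.9 and 17.3) came next, and neighbours in this trio overlapped. *GCLM* (8.34 and 9.88), *SLC7A11* (4.73 and 5.91) and *GPX3* (2.18 and 2.14) were the lowest.

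In NCI-H716 Z325 cells the order had changed. *SLC3A2* was now at 201 and 191 FPKM, *GPX4* at 249 and 107 and *GPX2* at 135 and 134, and the wide range of *GPX4* took in the values of both neighbours. *GPX1* stood at 124 and 66.2 and *GSS* at 52.3 and 58.0 FPKM. They were followed by *GCLC* at 35.3 and 36.1, *GCLM* at 32.9 and 32.1, *SLC7A11* at 25.1 and 25.1 and *GSR* at 18.6 and 27.3 FPKM, of which the last pair overlapped, and *GPX3* was at 1.37 and 0.05 FPKM.

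In HCT116 control cells *GPX1* was the highest of the 6 listed members per length, at 80.3 and 98.3 FPKM. It was followed by *GCLM* at 33.1 and 31.6, *GSR* at 18.9 and 14.9, *SLC7A11* at 14.6 and 12.1 and *GCLC* at 5.63 and 5.06 FPKM, with no overlap between neighbours. In Z325 cells *GCLM* (96.0 and 122 FPKM) and *SLC7A11* (73.8 and 90.4 FPKM) lay above *GPX1* (64.8 and 49.6 FPKM), and *GSR* (17.4 and 24.3 FPKM) and *GCLC* (14 and 20.9 FPKM) overlapped.

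Of the summed FPKM of the 10 members in NCI-H716, *GPX4* made up 44.6% ± 6.23 in control and 22.1% ± 8.91 in Z325 cells, and *GPX1* 27.2% ± 1.16 and 12.0% ± 3.15 (SD, n = 2 each). The share of *GPX2* went from 2.49% ± 0.946 to 17.7% ± 3.07 and that of *SLC3A2* from 11.2% ± 3.17 to 25.6% ± 3.72 (SD, n = 2 each). In HCT116, where 6 members are listed, *GPX1* went from 56.7% ± 5.69 to 20.2% ± 5.83 of the sum, *GCLM* from 20.6% ± 1.54 to 37.9% ± 2.61 and *SLC7A11* from 8.54% ± 1.48 to 28.5% ± 1.18 (SD, n = 2 each). Shares are tied to each other, so a rise of some members alone lowers the share of the rest.

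**Figure D4:**
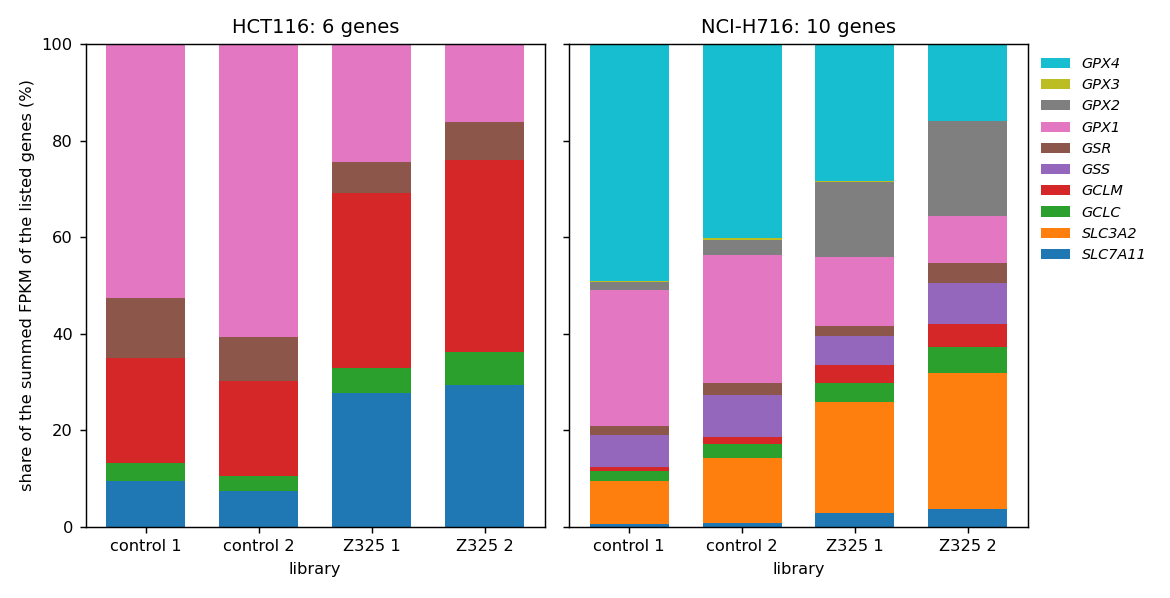
Share of each gene in the summed FPKM of the listed genes, in percent, in each library of HCT116 (6 genes, left) and NCI-H716 (10 genes, right). *GPX1* fills 52.6% and 60.7% of the HCT116 control bars and 24.4% and 16.1% of the Z325 bars, and *GPX4* fills 49.0% and 40.2% of the NCI-H716 control bars and 28.4% and 15.8% of the Z325 bars.

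An interaction term of line and treatment, fitted to all 8 libraries, asked whether the 6 members with values in both lines responded unequally. Of these members, 0 differed at an adjusted p under 0.05 in edgeR, against 0.0654% of 7642 genes that did. Before adjustment 2 of them, *GCLC* and *GPX3*, had a p under 0.05, as did 14.3% of all genes. *GPX3*, too low to be tested in HCT116 alone, passed the filter of this fit through its NCI-H716 controls. Its p is therefore no support for a difference. DESeq2 called 1, *GCLC*, and 132 of the 7642 genes, where edgeR called 5. For *GCLC* the fold change in NCI-H716 was lower than that in HCT116 by a log2 difference of -0.87 (standard error 0.26, adjusted p = 0.195, edgeR). With DESeq2 the *GCLC* difference was -0.96 (adjusted p = 0.0454). The difference was -0.41 for *SLC7A11* (standard error 0.22, adjusted p = 0.419), 0.24 for *GCLM* (standard error 0.23, adjusted p = 0.667), 0.11 for *GSR* (standard error 0.31, adjusted p = 0.961) and -0.69 for *GPX1* (standard error 0.44, adjusted p = 0.492, edgeR).

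Around the members, 93 further genes of cysteine supply, glutathione breakdown and transport, other peroxidases, glutaredoxins, selenoproteins and regulators were looked at. In HCT116, 29 of the 37 listed were tested, 3 were called higher and 0 lower in edgeR, with 8 higher and 0 lower before adjustment at p under 0.05, beside 11.2% higher and 12.7% lower of all genes tested. Their median fold change was 0.18, beside -0.03 over all genes tested. In NCI-H716, 73 were tested, 1 was called higher and 0 lower in edgeR, with 15 higher and 10 lower before adjustment at p under 0.05, beside 7.59% higher and 9.27% lower of all genes tested, and their median was 0.07, beside -0.01 over all genes. DESeq2 called 6 of these genes in HCT116 and 8 in NCI-H716, and over all genes it called 759 and 364, where edgeR called 375 and 71.

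The one gene called in NCI-H716 was *TXNRD1*, the cytosolic thioredoxin reductase and itself a selenoprotein, which is not in the HCT116 table used here. It was at 159 and 179 CPM in control and 463 and 605 CPM in Z325 cells. Both Z325 libraries were far above the controls, and the fold change was 1.66 (standard error 0.18, adjusted p = 0.00296, edgeR).

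Of cysteine supply, *CTH* encodes cystathionine gamma-lyase, which releases cysteine from cystathionine. It was at 42.1 and 34.6 CPM in HCT116 control and 78.8 and 71.0 CPM in Z325 cells, and at 30.1, 29.7, 52.8 and 52.6 CPM in the same order of NCI-H716 libraries. The groups were apart in both lines, and the fold change passed the test in HCT116 (0.97, standard error 0.21, adjusted p = 0.0356, edgeR) but not in NCI-H716 (0.82, adjusted p = 0.0917, edgeR).

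Of the other peroxidases, *GPX8*, which acts in the endoplasmic reticulum, was at 157 and 138 CPM in HCT116 control and 280 and 243 CPM in Z325 cells. It rose by 0.83 (standard error 0.15, adjusted p = 0.0191, edgeR), while in NCI-H716 it was low, at 5.94 ± 0.793 and 8.15 ± 1.0 CPM (SD, n = 2 each; adjusted p = 0.466, edgeR). *SARS1*, the cytosolic seryl-tRNA synthetase, which also charges the tRNA used for selenocysteine, was at 495 and 618 CPM in HCT116 control and 826 and 885 CPM in Z325 cells. It rose by 0.62 (standard error 0.14, adjusted p = 0.0447, edgeR), and in NCI-H716 its fold change was 0.54 (adjusted p = 0.167, edgeR).

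In the lists without a called gene, those with the smallest p-values ran in both directions. Of glutathione breakdown, *CHAC1*, a glutathione-cleaving cyclotransferase, was at 2.48 ± 0.77 and 8.4 ± 3.99 CPM in NCI-H716 (SD, n = 2 each; fold change 1.73, adjusted p = 0.12, edgeR). Its relative *CHAC2* was at 199 ± 10.8 and 281 ± 0.435 CPM in HCT116 (SD, n = 2 each; fold change 0.50, adjusted p = 0.0633, edgeR). In NCI-H716 the *CHAC2* groups overlapped, with a fold change of -0.11 (adjusted p = 0.788, edgeR). Of transport, the efflux pump gene *ABCC3* was at 19.6 ± 2.21 and 37.3 ± 2.68 CPM in NCI-H716 (SD, n = 2 each; fold change 0.93, adjusted p = 0.0898, edgeR), and *SLC25A39*, which carries glutathione into mitochondria, was at 149 ± 54.2 and 69.7 ± 22.9 CPM (SD, n = 2 each; fold change -1.10, adjusted p = 0.121, edgeR).

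Of the glutaredoxins and the glyoxalase system, the mitochondrial glutaredoxin gene *GLRX2* had a fold change of 0.53 in HCT116 (adjusted p = 0.06, edgeR). In NCI-H716 that of *GLRX2* was 0.04 (adjusted p = 0.925, edgeR). *HAGH*, which frees glutathione from a conjugate, had one of -0.75 in NCI-H716 (adjusted p = 0.242, edgeR). Genes on the opposite strand overlap the exons of both, *RO60* by 7.746% and *FAHD1* by 3.271%. Of the regulators, *ATF4* was at 175 ± 8.41 and 330 ± 69.6 CPM in NCI-H716 (SD, n = 2 each; fold change 0.91, adjusted p = 0.0665, edgeR). *BACH1*, a repressor at AREs, was at 10.5 ± 0.159 and 20.7 ± 3.05 CPM (SD, n = 2 each; fold change 0.98, adjusted p = 0.114, edgeR). *LINC00189* overlaps 3.939% of the *BACH1* exons.

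The genes whose pattern was most like that of *SLC7A11* and *GCLM* were sought among 2985 genes tested in both lines, by the Euclidean distance of log2 CPM over the 8 libraries, centred within each line. The members were left out of this ranking, and among the other genes the same 3, *DNAJB4*, *ARRDC3* and *ME1*, were nearest to both. For *SLC7A11* the distances were 1.37, 1.40 and 1.70 in that order, against a median of 3.53 over the other genes. For *GCLM* they were 0.64 for *DNAJB4*, 0.91 for *ME1* and 1.08 for *ARRDC3*, against a median of 2.78. Centring makes the control and Z325 values of a line mirror each other, so this likeness rests largely on the difference between the groups. The fold changes of these genes given next follow from that choice and are no separate support. The likeness says nothing of shared regulation.

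*DNAJB4* encodes a heat shock protein of the DNAJ family, and its fold change was 1.52 in HCT116 (adjusted p = 0.0016, edgeR) and 1.58 in NCI-H716 (adjusted p = 0.00737, edgeR). *ARRDC3* encodes an arrestin-domain protein, with fold changes of 2.03 (adjusted p = 0.000486, edgeR) and 1.05 (adjusted p = 0.0314, edgeR) in the same lines. *ME1*, the cytosolic malic enzyme that makes NADPH, had fold changes of 1.24 (adjusted p = 0.00288, edgeR) and 1.34 (adjusted p = 0.0114, edgeR). *GIPC2* overlaps 2.107% of the *DNAJB4* exons, and *ARRDC3-AS1* 2.909% of those of *ARRDC3*.

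Across the settings tried, the members fell into those whose call held and those whose call did not. *SLC7A11* and *GCLM* were called in all 14 alternatives in HCT116, and *GPX2* in all 14 in NCI-H716. Among these alternatives, the addition of overlapping genes left the counts of these genes as they were. In NCI-H716 *SLC7A11* and *GCLM* were called in 12 of 14, and both missed the threshold only when limma was run on log2 FPKM values, at adjusted p-values up to 0.0639 and 0.076. *SLC3A2* was called in 11 of 14 and *GCLC* in 7 of 14 in NCI-H716, and *GCLC* in 10 of 14 in HCT116. *GPX1* was called lower in 6 of 14 and *GPX4* in 3 of 14 in NCI-H716, and *GSS* in none.

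**Figure D5:**
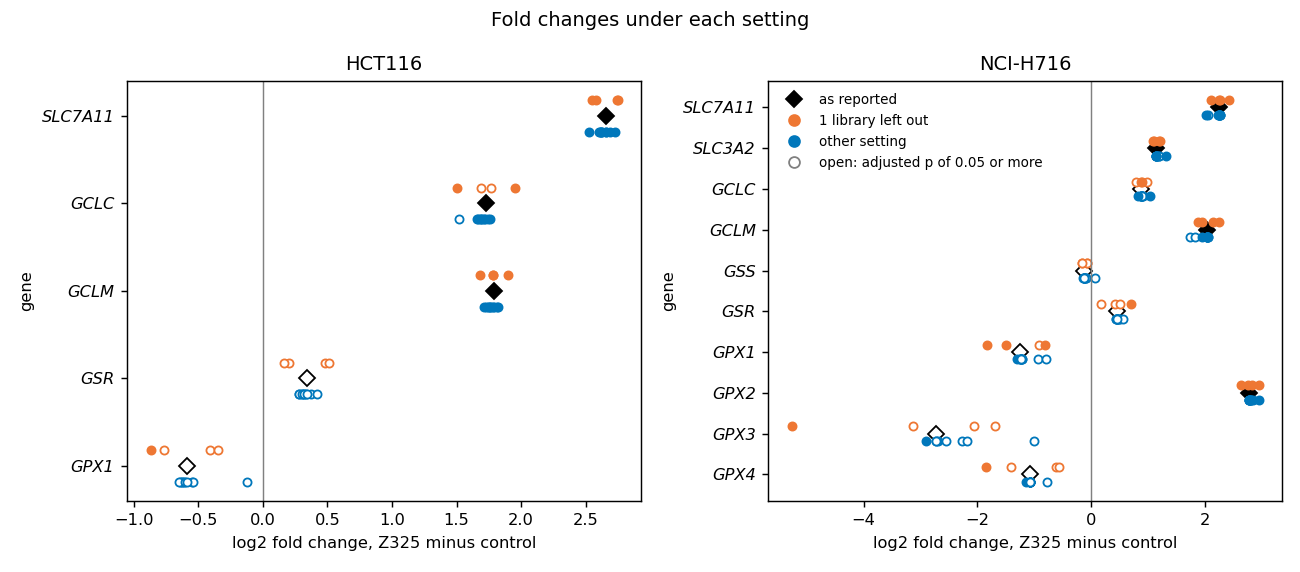
Fold change of each gene with Z325 on the log2 scale as reported (black diamonds), with 1 library left out (orange) and under each other setting (blue), for HCT116 (left) and NCI-H716 (right). Filled symbols have an adjusted p under 0.05. The values of *SLC7A11* stay between 2.53 and 2.75 in HCT116, while those of *GPX4* spread from -1.84 to -0.56 and those of *GPX3* from -5.26 to -1.0 in NCI-H716.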

How the data were processed

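RNA had been amplified from about 100 cells per reaction by the SMART-Seq2 protocol and sequenced in 8 libraries, 2 for each of 4 groups. The study describes reads trimmed by TrimGalore, aligned by STAR to GRCh38 and quantified by RSEM, while the submitters' processing notes name hg38, Bowtie2 2.5.0 and featureCounts. For NCI-H716, the authors deposited RSEM expected counts, TPM and FPKM for 63241 genes per library, and GENCODE v44 gave a symbol for 62666 of them. RSEM splits reads that fit several genes, so its counts can be fractional. For HCT116, the authors deposited unnormalized read counts with gene positions and exon lengths. Of the 28047 lines of the table used here, 4 were left out and 28043 genes were used. HCT116 FPKM was computed here from counts, all exon bases and listed totals, and HCT116 TPM was not computed. How reads shared between genes were counted there, and whether strand was used, is not given in the sources used here.

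The members and gene lists were chosen with earlier results of these data known. Expected counts were rounded. Each line was tested alone in edgeR 4.0.16 by the quasi-likelihood test after filterByExpr and TMM scaling, without a block for replicate number, and Benjamini-Hochberg adjustment ran over all genes tested. The interaction was fitted over 8 libraries. Of the further genes, those called in either line were named, or, in lists with none, up to 2 with the smallest p. The 3 nearest genes by pattern outside the members were named, with a minimum mean of 10 CPM in each line and a pseudocount of 0.5 CPM. Marker genes were named for what they mark. Alternatives were DESeq2 1.42.0, library size scaling, no filter, a minimum of 10 counts, limma 3.58.1 on log2(FPKM + 1) or log2(FPKM + 0.1), thinning to the shallowest library, a replicate block, each library left out and TPM for FPKM in shares and ratios. GC and length offsets and the addition of same-strand overlapping genes were added after seeing the data. Among the members, that addition concerned *GCLC* and *GPX1* alone. Within a library TPM is a fixed multiple of FPKM, so TPM could not change a share or a ratio. In HCT116 the FPKM values stood in place of TPM. The steps were tested on simulated data with 200 genes changed 4-fold. Intervals and limits of a count of 0 cover counting error only. Software was Python 3.11.15 with pandas 2.3.3, R 4.3.3, and matplotlib 3.10.9 for figures.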

Additional observations from a re-analysis of the deposited data

Results flagged for a closer look

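*GPX3* moved in opposite directions in the lines, with every library of each line on the side of its group. Its mean went from 0 to 0.521 CPM in HCT116 and from 2.24 to 0.369 CPM in NCI-H716. In HCT116 this rests on 6 and 2 counts in the Z325 libraries and 0 in the controls, and the test of the difference between the lines gave an adjusted p of 0.182 in edgeR, so the difference did not pass the threshold. *GPX3* had passed the filter of that test through its NCI-H716 controls, where it was high. Groups of 2 libraries are too small for a test of single outlying libraries.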

How the results depend on the processing

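Of 367 combinations of 32 results and their alternatives, 304 kept direction and side of the threshold or stayed within 1.5 times the count, 40 gained a call or rose in count, 19 lost one or fell in count and 4 reversed. Among the 304 are the TPM alternatives, which could not change a result. They also hold the addition of overlapping genes for members whose own counts it left as they were. The 3 members called in HCT116 ran from 2 to 4 as libraries were left out. The 4 called in NCI-H716 were 8 with no filter, 1 with limma on log2(FPKM + 1) or log2(FPKM + 0.1), and 3 to 9 as libraries were left out, with 9 without Z325 replicate 1, where 1386 of 14969 genes were called. With a replicate block they were 9, as *GCLC* (0.88), *GSR* (0.43), *GPX1* (-1.30), *GPX3* (-2.90) and *GPX4* (-1.15) gained calls. The 3 further genes called in HCT116 were 6 with DESeq2, 5 with a minimum of 10 counts or after thinning, 0 with limma at either pseudocount and 0 to 6 as libraries were left out (0 without either control, 5 without Z325 replicate 1 and 6 without Z325 replicate 2). The 1 called in NCI-H716 was 8 with DESeq2, 11 with no filter, 0 with limma at either pseudocount, 4 with GC and length offsets and 1 to 20 as libraries were left out (2 without control replicate 2, 20 without Z325 replicate 1 and 3 without Z325 replicate 2), and 24 with a replicate block. Members differing between the lines were 0, but 1 with DESeq2 (*GCLC*) and 1 with no filter (*GPX3*). *GSS* turned to 0.07 with GC and length offsets, the difference of *GSR* between the lines ran from -0.16 to 0.38 and took the values -0.04 and -0.16 where it turned, and the HCT116 change of the *GCLC* to *GCLM* ratio was -0.00652 but 0.00597 without Z325 replicate 1 (range -0.019 to 0.00597). The cause of these changes was not tested.

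Same-numbered libraries share only a number in the labels, and their deviations correlated at -0.0308 in HCT116 and 0.198 in NCI-H716. The block moved the genes called from 375 to 381 in HCT116 and from 71 to 2397 in NCI-H716. Over all genes, DESeq2 called 759 in HCT116 and 364 in NCI-H716, and no filter 683 and 777. Without HCT116 Z325 replicate 1 or 2, 971 and 1076 genes were called, and 430 after thinning to the shallow Z325 library.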
